A study of Mus musculus with 2 samples.

Results

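The microRNAs miR-26a and miR-26b were followed as the 3 mature names mmu-miR-26a-5p, mmu-miR-26b-5p and mmu-miR-26b-3p, chosen by name from 1909 mature microRNAs counted in both libraries. Mature microRNAs had been profiled by small RNA sequencing in vascular smooth muscle cells cultured from the thoracic aorta of male mice aged 10 to 12 weeks. One library came from diabetic db/db mice (BKS.Cg-m+/+Leprdb/J), which lack a working leptin receptor and become obese and hyperglycaemic, and the other from control db/+ mice (Lepr+/-), which carry the same mutation on 1 allele only. The medium of both cultures was DMEM/F-12 supplemented with 10% serum of fetal calves and antibiotics. There was 1 library per group and no replicate, so each difference below is between 2 libraries, no test between genotypes could be made, and the labels do not say how many mice each culture came from.

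A microRNA is cut from a hairpin whose arms, 5p and 3p, give 2 candidate mature strands, of which usually one is loaded into Argonaute and guides it to messenger RNAs that match its seed, the bases 2 to 8. The miR-26 hairpins lie in introns of the Ctdsp genes, which encode small phosphatases of the RNA polymerase II tail. In human cells miR-26a is known to act on SMAD1 and SMAD4, mediators of transforming growth factor beta and bone morphogenetic protein signals, and in human aortic smooth muscle cells its inhibition was reported to favour the differentiated state. The family is also known to repress Ezh2, a histone methyltransferase of the Polycomb system.

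The mature strands are shown because the 5p arms of the 2 members are nearly the same molecule, while the 3p arms tell the 3 hairpins apart. The sequences are from RefSeq on GRCm38.p6, 5′ to 3′, and capitals mark the seed.
miR-26a-5p: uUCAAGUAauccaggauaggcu
miR-26b-5p: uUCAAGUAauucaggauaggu
miR-26a-1-3p: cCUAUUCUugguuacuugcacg
miR-26a-2-3p: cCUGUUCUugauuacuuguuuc
miR-26b-3p: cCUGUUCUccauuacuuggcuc

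The 5p arms shared the seed UCAAGUA, whose reverse complement in a target is UACUUGA. Counted from 1 at the 5′ end of miR-26a-5p, miR-26b-5p differed by the substitutions C11U and C21U and lacked the last U, so 19 of 21 aligned positions were identical. Of 1679 mature names in the RefSeq table, these 2 alone carried this seed. The next nearest sequences were 8 edits away from each (miR-6927-5p from miR-26a-5p and miR-155-5p from miR-26b-5p). Reads of the pair that missed the distinguishing bases could be assigned to either name, and how the authors treated such reads is not stated in the labels or headers. Among the 3p arms, miR-26a-2-3p and miR-26b-3p shared a seed and 18 of 22 positions, and miR-26a-1-3p had another seed.

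Loci on 3 chromosomes encode these strands, all on the plus strand of GRCm38. Mir26b lies on chromosome 1 at 74394310 to 74394394, in intron 4 of the principal transcript of Ctdsp1. Mir26a-1 lies on chromosome 9 at 119031796 to 119031885, in intron 5 of the principal transcript of Ctdspl. Mir26a-2 lies on chromosome 10 at 126995530 to 126995613, in intron 5 of the principal transcript of Ctdsp2, although 2 of the 4 annotated Ctdsp2 transcripts, 1 of them a retained intron, place an exon over it. Because both miR-26a hairpins give the same 5p arm, its counts cannot be split between Ctdspl and Ctdsp2. Host messenger RNAs were not measured in these libraries.

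Both 5p arms were lower in the db/db library, and miR-26b-5p was the more abundant of the pair in each library. Levels are in CPM, counts per 1000000 microRNA counts of the library, and intervals are exact 95% intervals for counting error only. They take each read as an independent count, so PCR copies among the reads would make them too narrow. Variation between cultures is not in them. The count of miR-26a-5p was 10705 in db/db and 17274 in db/+. As a level this was 441 CPM (432 to 449) in db/db and 667 CPM (657 to 677) in db/+. The ratio of db/db over db/+ was 0.661 (0.645 to 0.677), a log2 ratio of -0.60. The counting intervals of the libraries did not overlap. At this depth that also held for small differences, such as let-7a-5p at a ratio of 1.03 and miR-143-3p at 0.971. How many of all microRNAs had intervals apart was not counted.

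For miR-26b-5p the count was 11328 in db/db and 19963 in db/+. Its level was 466 CPM (458 to 475) in db/db and 770 CPM (760 to 781) in db/+. Again the intervals were apart, with the same limit. The db/db level was 0.605 times the db/+ level (0.591 to 0.619), or -0.72 on the log2 scale. By rank of level, miR-26b-5p was number 46 in db/db and number 38 in db/+. The rank of miR-26a-5p was 49 in db/db and 39 in db/+, so both arms stood at a lower place among all microRNAs in the diabetic cells.

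**Figure D1:**
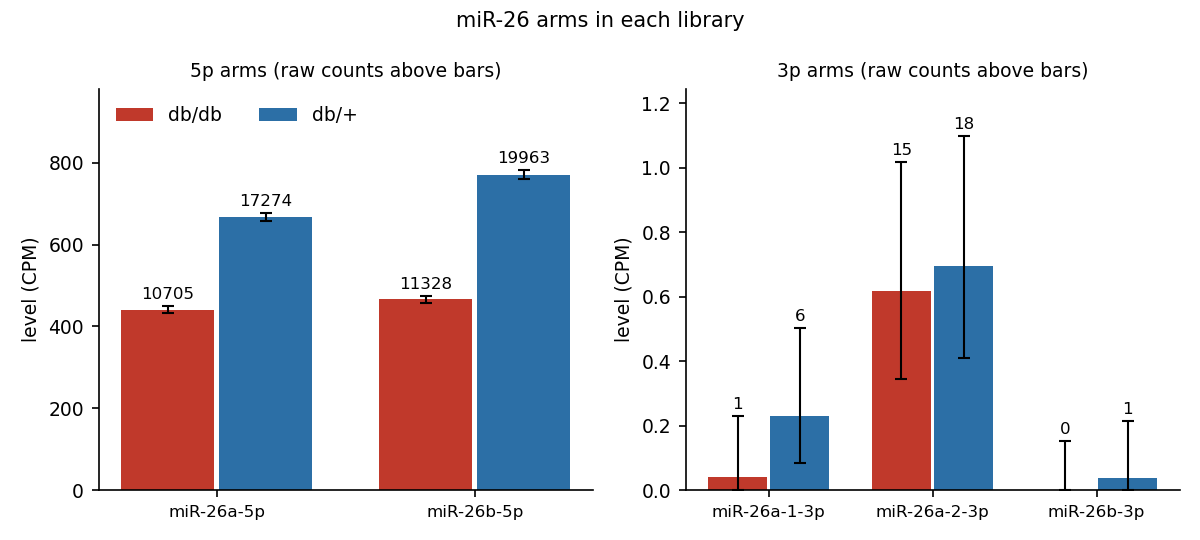
Levels of the miR-26 arms in CPM (vertical axes, with different scales for 5p and 3p) in the db/db library (red) and the db/+ library (blue), with raw counts above the bars and exact 95% counting intervals. The 5p arms lie at 441 and 466 CPM in db/db and at 667 and 770 CPM in db/+, while every 3p arm is below 1 CPM.

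Taken as 1 seed pool, the 5p arms held 22033 counts in db/db and 37237 in db/+. The pool was thus 0.0907% of microRNA counts in db/db (0.0895 to 0.0919) and 0.144% in db/+ (0.142 to 0.145). Its ratio was 0.631 (0.621 to 0.642), a log2 ratio of -0.66. If each read was counted once, this sum does not depend on how reads were divided between the 2 names, but whether a read could count under both is not stated.

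The balance between the paralogs was close to even in both libraries and differed slightly between them. Of the 5p counts, 48.6% (47.9 to 49.2) were miR-26a-5p in db/db and 46.4% (45.9 to 46.9) in db/+. There were 0.945 counts of miR-26a-5p per count of miR-26b-5p in db/db (0.920 to 0.970) and 0.865 in db/+ (0.848 to 0.883). The ratio of miR-26a-5p was 1.09 times that of miR-26b-5p (exact conditional interval 1.06 to 1.13), a comparison within each library that the choice of library scaling cannot move. Levels of different microRNAs also depend on the ligation and amplification efficiency of each sequence, which was not measured.

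The 3p arms were at the edge of detection, so nearly all reads of the miR-26b hairpin, and of the pooled miR-26a hairpins, were on the 5p arm. The member miR-26b-3p had 0 counts in db/db and 1 in db/+, while its partner arm had 11328 in db/db and 19963 in db/+. A count of 0 allows up to 3 counts, which is 0.123 CPM in db/db, or 0.0265% of the miR-26b hairpin's counts. Since both libraries were at or under 3 counts, no ratio is given for miR-26b-3p.

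The 3p arms of miR-26a are not among the 3 members, but unlike the shared 5p arm each belongs to 1 hairpin. For miR-26a-2-3p there were 15 counts in db/db and 18 in db/+, a ratio of 0.889 (0.417 to 1.87). For miR-26a-1-3p there were 1 and 6 counts in db/db and db/+, a ratio of 0.178 (0.00387 to 1.47). Both intervals include 1, and a difference was not detectable at this depth. Of the miR-26a 3p counts, 15 of 16 in db/db (93.8%, exact binomial interval 69.8 to 99.8) and 18 of 24 in db/+ (75.0%, 53.3 to 90.2) were from the Ctdsp2 hairpin, with overlapping intervals. The 3p share of all miR-26 counts was 0.0726% (0.0415 to 0.118) in db/db and 0.0671% (0.0434 to 0.0990) in db/+. The arms were therefore used in proportions that could not be told apart at these counts.

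Among all microRNAs, 356 had at least 50 counts in at least 1 library, and 2 of the 3 members were among them. Neither 5p arm reached a 2-fold difference. At that limit 13.5% of the 356 were lower and 4.49% were higher in db/db. At a 1.5-fold limit both arms were lower, as were 24.2% of the 356, so a difference of this size was common in these libraries. The ratio of miR-26a-5p is close to that limit and lay at 0.702 to 0.717 under 5 other scalings of the libraries, where miR-26b-5p alone remained beyond it. With library totals the median log2 ratio of the 356 was -0.14, with 153 ratios above 1 and 203 below. Of the other scalings, 4 raised this median by 0.09 to 0.12. In order of ratio, 84 of the 356 were at or below miR-26a-5p and 77 at or below miR-26b-5p, each count including the arm itself.

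**Figure D2:**
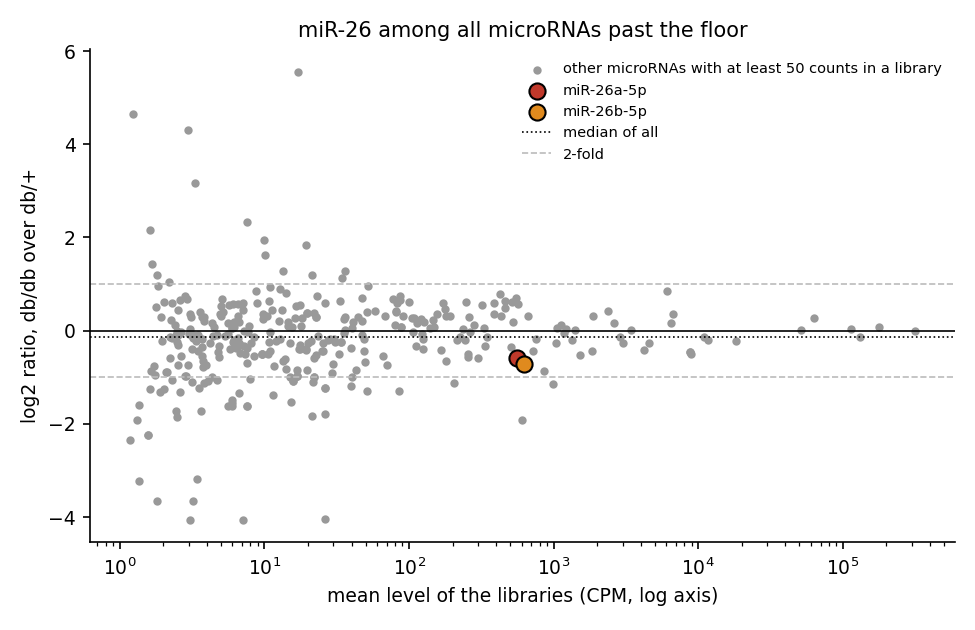
Log2 ratio of db/db over db/+ (vertical axis) against the mean level of the 2 libraries in CPM (horizontal log axis) for the 356 names that passed the 50-count floor, with the 2-fold limits dashed and the median of -0.14 dotted. The miR-26 5p arms, at -0.60 and -0.72, sit near the lower edge of the microRNAs of like level.

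Against microRNAs of like abundance, the pair stood nearer the lower end. A window of mean CPM within 2-fold of miR-26a-5p, chosen after the values were seen, held 27 microRNAs with ratios from 0.264 to 1.72 and a median log2 ratio of 0.06. In it 12 ratios were below 1. The 5 lowest were miR-146b-5p, an inhibitor of inflammatory signalling, at 0.264, miR-129-2-3p at 0.451, miR-23a-3p at 0.552, miR-26b-5p and miR-26a-5p. The window around miR-26b-5p held 28, of which 4, itself included, were at or below it.

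The microRNA nearest to miR-26b-5p in level and difference was miR-26a-5p. For miR-26a-5p, miR-26b-5p and miR-107-3p were equally near to the digits given. Likeness was the distance in the plane of log2 CPM in db/db and log2 CPM in db/+, so it rests on 2 libraries. The arms were 0.224 log2 units apart. From miR-26a-5p, miR-107-3p was also 0.224 away, with 448 CPM in db/db, 571 CPM in db/+ and a ratio of 0.784 (0.765 to 0.804). The third was miR-744-5p, 0.561 away, with a ratio of 1.14 (1.11 to 1.17). For miR-26b-5p the second was miR-23b-3p, 0.414 away, with 615 CPM in db/db, 830 CPM in db/+ and a ratio of 0.741 (0.726 to 0.757), and miR-107-3p was the third at 0.436. Of these neighbours, miR-744-5p was thus on the other side of 1.

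Among microRNAs past the floor with a matched sequence, ratios moved with the base composition of the mature strand. The miR-26 5p arms are poor in G and C. GC content was 40.9% for miR-26a-5p and 33.3% for miR-26b-5p. A mature sequence was matched by name for 286 of the 356. The median log2 ratio was -0.45 in 46 microRNAs under 40% GC, -0.20 in 106 from 40% to under 50%, 0.16 in 84 from 50% to under 60%, and 0.32 in 50 at 60% and over. Across the 286, which share the same 2 libraries, Pearson's r of log2 ratio with GC content was 0.267 and Spearman's rho 0.38.

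Set against the straight line through those 286 points, both 5p arms were lower by less. The line stood at a log2 ratio of -0.34 at the GC content of miR-26a-5p and at -0.53 at that of miR-26b-5p. Relative to the line the ratios were 0.836 for miR-26a-5p and 0.873 for miR-26b-5p, so the order of the 2 arms was turned round. Within 2.5 GC points, 16 of 47 microRNAs were at or below miR-26a-5p, and 7 of 16 at or below miR-26b-5p, each count including the arm itself. With the level held at 100 CPM or more, a limit added after the values were seen, the classes under 40% and from 40% to under 50% had medians of -0.14 over 9 and -0.17 over 36 microRNAs, and those from 50% to under 60% and at 60% and over had 0.16 over 27 and 0.32 over 5. Of the class under 40%, 1 of the 9 (miR-26b-5p itself) was at or below miR-26b-5p. Of the class from 40% to under 50%, 5 of the 36, miR-26a-5p itself included, were at or below miR-26a-5p.

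**Figure D3:**
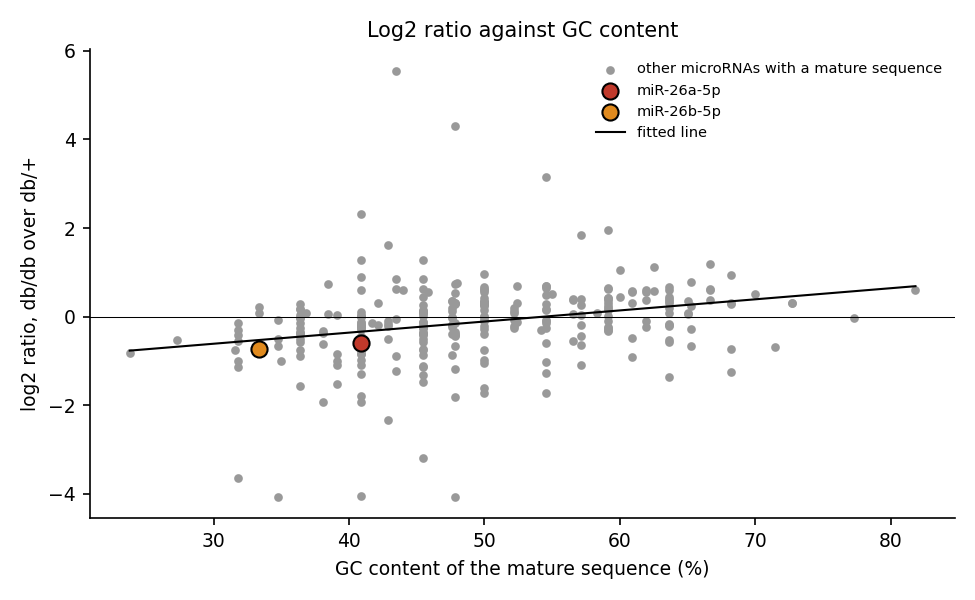
Log2 ratio of db/db over db/+ (vertical axis) against GC content of the mature strand in percent (horizontal axis) for 286 microRNAs with a matched sequence, with the fitted line. Both miR-26 5p arms, at 40.9% and 33.3% GC, lie below the line in its lower part.

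**Figure D4:**
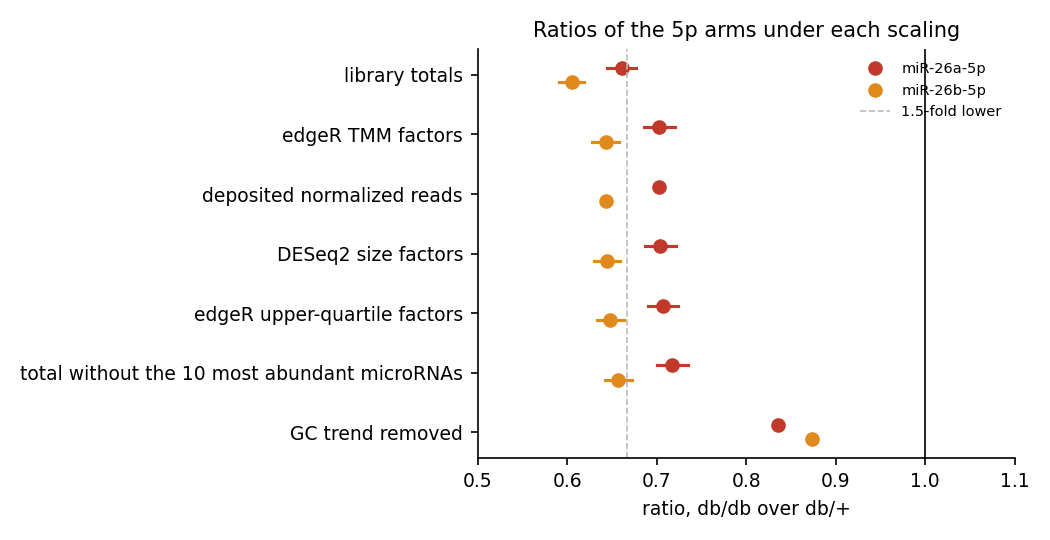
Ratio of db/db over db/+ (horizontal axis) for miR-26a-5p (red) and miR-26b-5p (orange) under library totals and 6 alternatives (vertical axis), with exact 95% counting intervals where counts were scaled. All values are below 1, from 0.605 with library totals to 0.873 for miR-26b-5p relative to the GC line, and the dashed line marks 1.5-fold lower.

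Other microRNAs known in smooth muscle were spread on both sides of 1. The counts of each list below stand beside those of all 356 with library totals. Of these, 153 lay above 1 and 203 below, 13.5% were at least 2-fold lower and 4.49% at least 2-fold higher. In the contractile list 5 of 7 members passed the floor. Of these 2 lay above 1 and 3 below, while 4 lay above 1 with 4 other scalings of the libraries. No member reached 2-fold (1 did with those scalings), and the list's median log2 ratio was -0.03 beside -0.14 for all 356. Here miR-143-3p, which with miR-145 maintains the contractile state, had 1167 CPM in db/db, 1202 CPM in db/+ and a ratio of 0.971 (0.956 to 0.987), against 1.03 to 1.05 with the other scalings. The ratio of miR-145a-5p was 0.795 (0.771 to 0.819). The other arm of the miR-143 hairpin, miR-143-5p, went the other way, at 1.32 (1.24 to 1.41). The muscle microRNA miR-1a-3p had a ratio of 1.93 (1.78 to 2.09), or 2.05 to 2.09 with the other scalings. In the other 4 lists described here the number above 1 and the number at 2-fold were equal under all of these scalings.

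All 7 members of the growth and migration list passed, 2 above 1 and 5 below, with a median of -0.14. One, miR-146a-5p, a brake on inflammatory signalling, was at least 2-fold higher, at 5.05 (3.86 to 6.71). The ratio of miR-21a-5p, which is raised in injured vessels, was 0.706 (0.702 to 0.710), and those of miR-221-3p and miR-222-3p, which repress the cell cycle inhibitor p27, were 0.906 and 1.09 in that order. For miR-24-3p the ratio was 0.836 (0.822 to 0.851). The ratio of miR-22-3p, 0.671 (0.649 to 0.693), was close to that of miR-26a-5p.

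MicroRNAs known in SMAD signalling, or known to target Ezh2, did not all lie low. In the list tied to SMAD and bone morphogenetic protein signalling 7 of 7 passed, 2 above 1 and 5 below, with a median of -0.26. Its most abundant member, miR-30a-5p, had a ratio of 1.01 (0.999 to 1.03), miR-24-3p had 0.836, miR-23b-3p had 0.741 and miR-27b-3p had 1.096. Among the less abundant members, miR-155-5p had 0.629 (0.579 to 0.682), near the ratios of the miR-26 5p arms, and miR-199a-5p had 0.858. One, miR-18a-5p, was at least 2-fold lower, on 51 counts in db/db and 129 in db/+. With library totals 2 of the 7 were at least 1.5-fold lower, beside 24.2% of all 356. Among those known to target Ezh2, 5 of 6 passed, 2 above 1 and 3 below, and the median was -0.20. Values were 0.872 (0.841 to 0.903) for miR-101b-3p, 0.755 for miR-98-5p, a let-7 relative, 0.799 for miR-214-3p and 1.06 for miR-101c. The last had nearly the same counts as miR-101a-3p (2179 and 2175 in db/db, and 2201 for each in db/+), so these 2 names may stand for the same reads.

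Other microRNAs hosted in introns of small gene families gave 1 ratio above 1 and 6 below among 7, beside 203 below among all 356. The list's median was -0.35, and 2 of its 7 names were the arms of miR-140. The pair miR-103-3p and miR-107-3p, from the pantothenate kinase genes, had ratios of 0.750 (0.744 to 0.757) and 0.784. For miR-152-3p the ratio was 0.871 (0.858 to 0.884). In contrast, miR-140-3p, from the ubiquitin ligase gene Wwp2, had a ratio of 1.21 (1.20 to 1.21). Of the 7, 2 were at least 2-fold lower, beside 13.5% of all 356. These were miR-140-5p with 67 counts in db/db and 220 in db/+, and miR-218-5p with 13 in db/db and 54 in db/+. Since miR-218-5p passed the 50-count floor only through db/+, the floor itself favoured a lower ratio for it. The miR-26 5p median of -0.66 was lower than the median of each of these 5 lists, which describes 2 strands that are near-identical and were chosen by name.

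**Figure D5:**
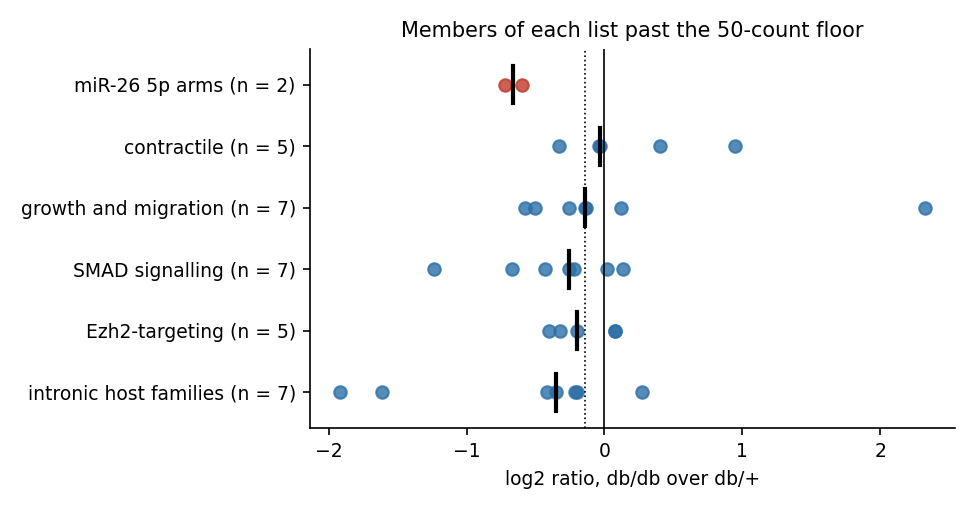
Log2 ratio of db/db over db/+ (horizontal axis) for the miR-26 5p arms and for members of 5 lists past the 50-count floor, with black bars for medians and the dotted line at -0.14 for all 356. The miR-26 arms, at -0.60 and -0.72, lie below every plotted member of the contractile, growth and Ezh2 lists and inside the range of the SMAD and intronic host lists.

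The libraries held 24295112 microRNA counts over 833 detected names in db/db and 25915732 over 881 in db/+. Smooth muscle marker microRNAs, the 4 arms of miR-143 and miR-145a, summed to 1567 CPM in db/db and 1656 CPM in db/+. Endothelial markers, both arms of miR-126a, summed to 2.92 CPM in db/db and 0.270 CPM in db/+. These sums rest on 71 counts in db/db and 7 in db/+, of which miR-126a-5p had 58 in db/db and 2 in db/+. Blood markers summed to 6.71 CPM in db/db and 6.48 CPM in db/+, with miR-144-3p, miR-142a-3p and miR-223-3p at 0 in both. Most of that sum was miR-486a-5p, with 147 of 163 counts in db/db and 150 of 168 in db/+. Epithelial markers summed to 0.906 CPM in db/db and 0.270 CPM in db/+, on 22 and 7 counts in that order, and none passed the floor. The striated muscle list summed to 2765 CPM in db/db and 2473 CPM in db/+, and miR-206-3p made up nearly all of it, with 1 count of miR-133a-3p in each library. Levels of miR-26 are from the whole culture, where fewer cells of a type and less RNA per cell cannot be told apart. The part of cell composition in the miR-26 ratios was not tested.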

How the data were processed

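Each library has 1 file, which per the file headers gives for every mature microRNA its raw read count and a TMM-normalized read number made by the authors. Novoalign, edgeR and mm10 appear in the submitters' processing notes without versions or roles. The labels and headers do not state trimming, mismatch limits or how reads that match several microRNAs were handled. The deposited normalized reads were whole numbers, treated as a score, and entered 1 alternative.

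Counts were divided by the column total (CPM). Ratios carry exact conditional (Clopper-Pearson) 95% intervals, levels exact Poisson intervals and shares exact binomial intervals. Log2 ratios had 0.5 counts added. With 1 library per group no count model had residual degrees of freedom and no p-value is given, so a size rule (2-fold, at least 50 counts in a library) stood in for it. Alternative factors came from edgeR 4.0.16 and DESeq2 1.42.0, and the rest from Python 3.11.15 and scipy 1.17.1. Precursor loci are from GENCODE on GRCm38, the assembly also called mm10. The ratio computation was tested on simulated Poisson counts, the model that the intervals assume. Those counts held no variation between cultures, so the test covers the computation only and not the ratios of these libraries.

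Members and lists were chosen with earlier results of these data known. Named microRNAs were the members, the miR-26a 3p arms, seed sharers, the 3 nearest to each 5p arm, and up to 4 members of each list by level. Others were named after their values were seen.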

Additional observations from a re-analysis of the deposited data

How the results depend on the processing

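The ratios of both 5p arms and of their sum were below 1 under library totals and under every scaling tried, and each moved beyond its counting interval. For miR-26a-5p the ratio was 0.702 with edgeR TMM factors, 0.704 with DESeq2 size factors, 0.707 with upper-quartile factors, 0.717 without the 10 most abundant microRNAs, 0.702 with the deposited normalized reads and 0.836 with the GC trend, intercept included, removed. In the same order miR-26b-5p had 0.643, 0.644, 0.647, 0.657, 0.643 and 0.873, and the sum had 0.671, 0.672, 0.675, 0.685, 0.671 and 0.852. The 4 rescalings shifted all log2 ratios by 0.09 to 0.12, and the median of the 356 then lay between -0.05 and -0.02. Adding 0.1 or 5 counts left each ratio inside its interval, as the deposited reads did the shares. Lower floors and limits admitted more microRNAs by construction. At least 2-fold higher were 46 names and 2-fold lower 91 when 10 counts sufficed, against 171 and 259 when any count did. At the 1.5-fold limit these numbers were 48 and 86. At or below miR-26a-5p stood 153 names when 10 counts sufficed and 348 when any count did, and at or below miR-26b-5p 140 and 326. Apart from these constructions the cause of the movements was not tested. No ratio of miR-26b-3p could be given at 0 and 1 counts. Leaving out a library leaves no comparison. No paired analysis was possible because there was a single library for each genotype.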
